A study of Mus musculus with 16 samples.

Results

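Glycolysis splits glucose into pyruvate in the cytosol and yields ATP without oxygen, and lactate dehydrogenase turns pyruvate into lactate. The avascular corneal epithelium is known for its use of glycolysis and for the lactate it releases. Here the signals of glycolysis enzyme genes were compared between limbal basal cells, which lie at the border of the cornea with the conjunctiva, and corneal basal cells. The list held 10 genes, Hk2, Pfkl, Aldoa, Tpi1, Gapdh, Pgk1, Pgam1, Eno1, Ldha and Ldhb, and a gene counted as measured where at least 1 probe set of the array was annotated to that symbol alone. That left 8 genes with 21 probe sets, out of 18193 such genes in all. Gapdh was annotated alone to array control probe sets only, which were kept out, and no probe set was annotated to Eno1 alone, so both are not analysed here.

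The limbal captures and the corneal captures came from wild-type mice, 8 arrays per site and both sites from each of 8 mice. About 300 cells per capture were cut out with a laser, and their RNA was amplified before it was hybridised to an Affymetrix Mouse430_2 array. Age, sex and strain of the mice were not given. The comparison asks which transcripts set limbal basal cells apart from corneal ones within an animal. Differences are limbal minus corneal on a log2(signal + 89.4) scale, so 1 means a doubling where signals are well above the constant, and changes of dim probe sets are understated. Each comes from limma's paired fit with its standard error (SE), and adjusted p-values are Benjamini-Hochberg values over all 27022 tested probe sets. In captured tissue, fewer cells of a type and less RNA per cell cannot be told apart.

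The arrays were of unequal quality. Both arrays of a mouse shared 1 of 3 scan days, day 1 for mice 1 and 2, day 2 for mice 3 to 5, day 3 for mice 6 to 8. The median correlation between arrays of a day was 0.48, 0.24 and 0.81. The corneal array of mouse 5 stood apart, with a median correlation of 0.045 with the other arrays and a Krt12 signal of 948.4, where the other arrays of both sites were at 36932 or above. Krt12 is the keratin that defines corneal epithelium, and it was thus present on the other 15 arrays. The differences of the 8 measured genes, and their median, are also given without mouse 5.

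No glycolysis gene passed the threshold between limbal and corneal captures. Of the 8 measured genes, read from their brightest probe set, 5 had a limbal minus corneal difference above 0, as had 50.9% of all tested genes, and 3 below. None, 0 of 8, had an adjusted p under 0.05 in limma, and neither did any of their 20 tested probe sets. Over all 13570 tested genes 18 were called, or 0.133%, and over all tested probe sets 0.0851%. The median difference of the 8 genes was 0.14, beside 0.01 over all tested genes, and it was -0.25 without mouse 5, beside -0.01 over all tested genes. At an unadjusted p under 0.05 there was 1 of the 8, Ldhb, against 6.71% of all genes. Limbal and corneal signals overlapped for all 8 genes, and 0.00737% of all genes had no overlap.

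**Figure D1:**
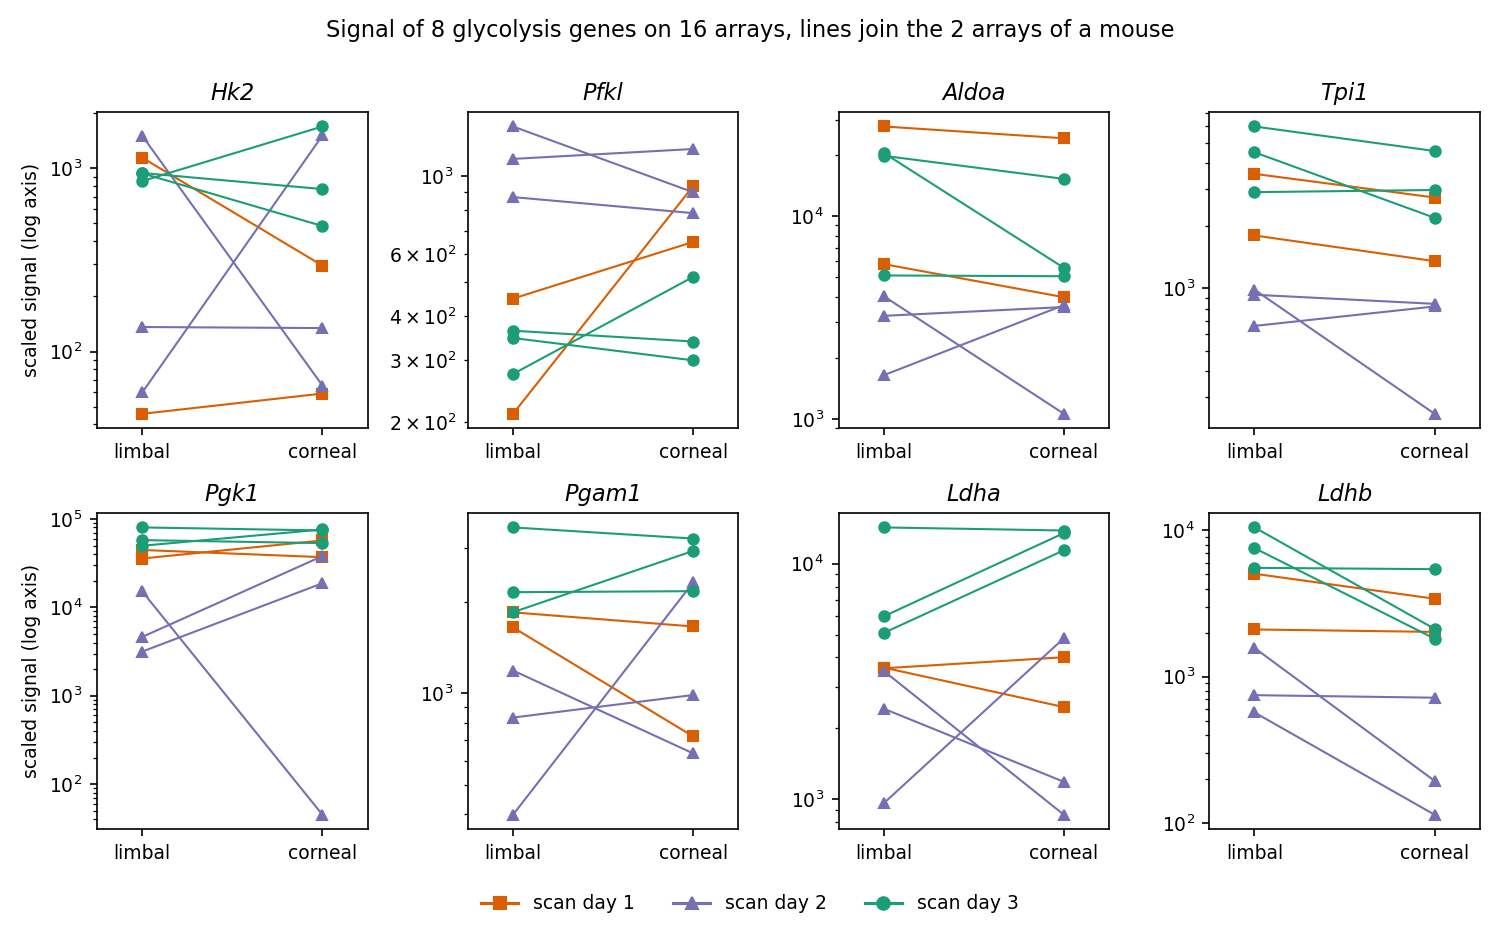
Scaled signal (log axis) of the brightest probe set of each measured glycolysis gene on the limbal and the corneal array of each mouse, with lines joining the 2 arrays of a mouse and colours and shapes for the scan day. The limbal end is the higher one on all 8 lines of Ldhb, those of the other genes run both ways, and the corneal array of mouse 5 has a Pgk1 signal of 45.

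The first step, phosphorylation of glucose, is carried out by hexokinases, of which Hk2 encodes an insulin-responsive form. Its limbal signals had a lowest value of 45.7, a median of 895.3 and a highest value of 1505, against 59, 389.3 and 1692 in corneal captures. The single mice went far apart in both directions, with a difference of 3.37 in mouse 5 and of -3.42 in mouse 4. The fitted difference was 0.21 ± 0.51 (SE, n = 8 mice), and -0.24 without mouse 5. Pfkl encodes the liver-type subunit of phosphofructokinase, which commits sugar to glycolysis. Its limbal signals ranged from 210.8 over a median of 406 to 1386, against 299.3, 717.8 and 1196 in corneal captures. The fitted difference was -0.26 ± 0.41 on this probe set and 0.48 ± 0.42 on a second one (1450269_a_at), so the probe sets of Pfkl differed in sign. Without mouse 5 the brightest one gave -0.32. The remaining probe set of Pfkl was below the filter on dim probe sets and was not tested, the only one of the 21.

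Aldoa, Tpi1, Pgk1 and Pgam1 encode enzymes of the middle of the pathway, which cleave the sugar, interconvert the pieces and pass phosphate to ADP. The limbal signals of Aldoa (1416921_x_at), which encodes the aldolase that muscle also uses, had a lowest value of 1642, a median of 5453 and a highest value of 27725, against 1059, 4521 and 24240.3 in corneal captures. Its difference was 0.45 ± 0.46, above 0 in 6 of 8 mice, and its other 4 probe sets gave 0.18 to 0.98, all above 0. The fitted value was 0.25 without mouse 5 and 0.24 without mouse 6, and the probe set with 0.98 (1447734_x_at) had a difference of 4.87 in mouse 5. The difference of Aldoa was largest in mice 6 (1.87) and 5 (1.84), the mice in which a list of 12 skeletal muscle genes had its largest mean differences, 4.64 and 2.16. In the other mice Aldoa differed by -1.11 to 0.53 and the muscle list by -1.04 to 0.77. In mouse 5, whose corneal array stood apart, corneal epithelium and conjunctival genes also had mean differences of 1.92 and 1.89. All 12 muscle genes were measured, with summed signals between 1845 and 302239 in limbal and between 3050.0 and 221622 in corneal captures. Their part in the Aldoa difference was not tested. Tpi1, the triosephosphate isomerase gene, had limbal signals with a lowest value of 659.8, a median of 2348 and a highest value of 5999.6, against 249.3, 1767 and 4572 in corneal captures. Its difference was 0.46 ± 0.39 and above 0 in 6 of 8 mice, but its 2 other probe sets gave 0.15 ± 0.41 and -0.72 ± 0.42. Without mouse 5 it was 0.56.

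Pgk1, which encodes the phosphoglycerate kinase that makes ATP in glycolysis, showed the widest spread (1438640_x_at). Its limbal signals were 35666 and 44528 in mice 1 and 2, 4626, 3159 and 15125 in mice 3 to 5 and 80141, 49709.6 and 57575 in mice 6 to 8. The corneal signals were 57080.0 and 36930 in mice 1 and 2, 38006, 18741 and 45 in mice 3 to 5 and 74046, 75938 and 53228 in mice 6 to 8. The limbal arrays of scan day 2 and the corneal array of mouse 5 were thus low, and the signals of days 1 and 3 were closer together. These 4 arrays also had the lowest ratios of the 3′ to the 5′ control probe set of Gapdh. The ratio was 0.74, 1.86 and 1.03 in the limbal captures of mice 3 to 5 and 1.22 in the corneal capture of mouse 5. The other arrays were at 3.34 or above. The 3′ signals behind the low ratios were 778, 923.9, 1500.8 and 218.7, against 3141.5 or above on days 1 and 3. The corneal arrays of mice 3 and 4, also of day 2, had similar 3′ signals of 1384.6 and 1437.2. Their ratios were 8.42 and 5.07. What sets the ratio on these arrays was not tested, and it is not read as RNA integrity here. The difference was 0.06 ± 0.76 with a 95% interval from -1.48 to 1.60. With that ratio in the fit it was 0.73 ± 0.80 (adjusted p = 0.94). The single difference was 6.82 in mouse 5, while the others ranged from -3.01 to 0.27, and without mouse 5 the fitted value was -0.91 ± 0.48 (adjusted p = 0.75). The other probe sets of Pgk1 gave -0.38 ± 0.45 and 0.13 ± 0.44. Pgam1, the phosphoglycerate mutase gene, had limbal signals with a lowest value of 398.1, a median of 1744 and a highest value of 3506, against 633.6, 1910 and 3223 in corneal captures. Its difference was -0.12 ± 0.41, above 0 in 4 mice and below 0 in 4, with -2.30 in mouse 3, and it was -0.26 without mouse 5.

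**Figure D2:**
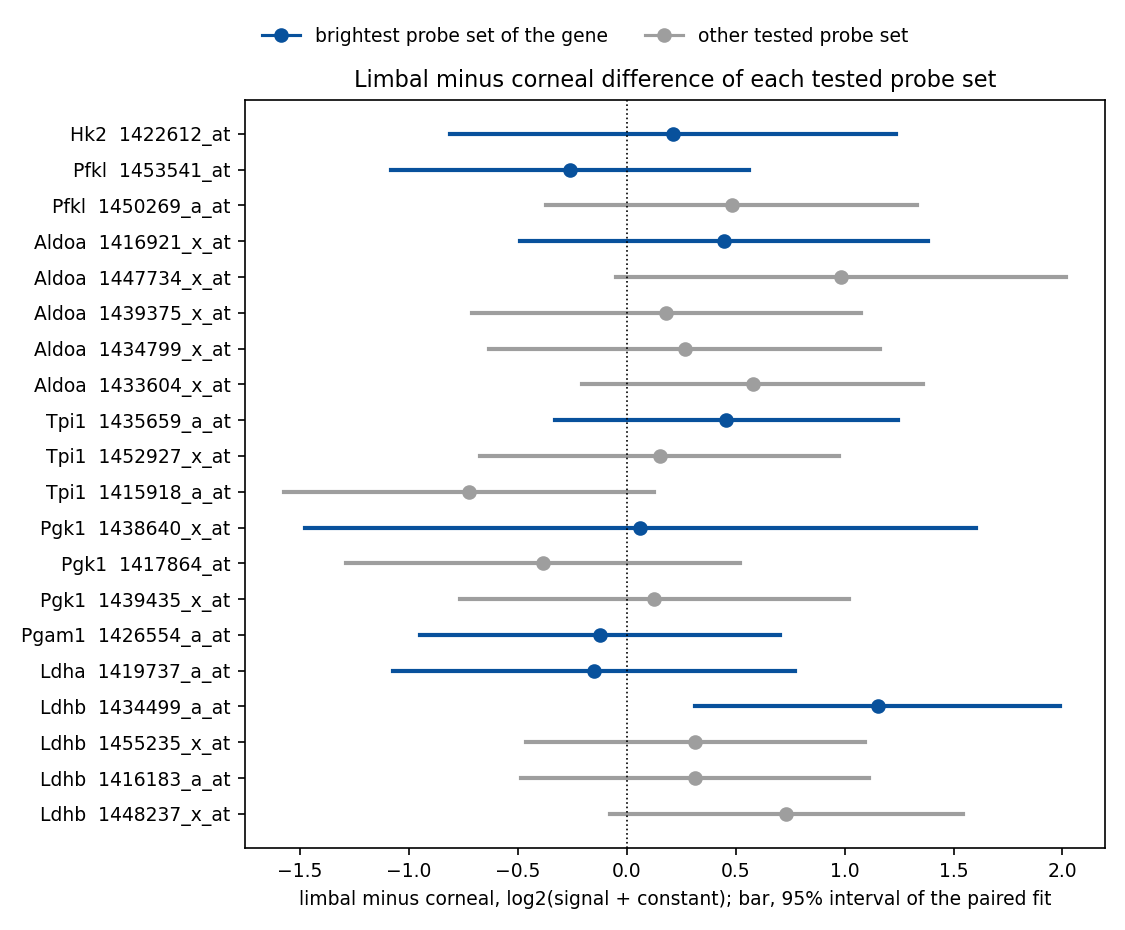
Limbal minus corneal difference on the log2 scale for each of the 20 tested probe sets, with the 95% interval of the paired fit as a bar and the brightest probe set of each gene in blue. The interval of the brightest Ldhb probe set, from 0.31 to 1.99, is the only one that does not reach 0, and no probe set passed after adjustment.

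The largest difference in the list was that of Ldhb, at the last step. Lactate dehydrogenase is a tetramer of A and B subunits, encoded by Ldha and Ldhb; forms rich in A are known from skeletal muscle and forms rich in B from heart. Ldhb (1434499_a_at) had limbal signals of 5058 and 2103 in mice 1 and 2, 747.5, 569.6 and 1574 in mice 3 to 5 and 10489.8, 7577 and 5550.2 in mice 6 to 8. Its corneal signals were 3411 and 2024 in mice 1 and 2, 718.2, 113.6 and 193.5 in mice 3 to 5 and 2121, 1818 and 5435 in mice 6 to 8. On this probe set the limbal array was the higher one in 8 of 8 mice, which 0.575% of all tested genes shared, although the groups as a whole overlapped. In mice 2, 3 and 8 the excess was small, with differences of 0.05, 0.05 and 0.03.

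Averaged over the mice, the log2 level of Ldhb was 11.49 ± 1.50 in limbal and 10.34 ± 1.70 in corneal captures (SD, n = 8 each). The fitted difference was 1.15 ± 0.41, a 2.22-fold higher limbal signal with a 95% interval from 1.24 to 3.97, and the adjusted p was 0.55, which does not pass. By scan day the mean difference was 0.31, 1.44 and 1.43 on days 1, 2 and 3. Within day 2 the differences were 0.05, 1.70 and 2.56 in mice 3 to 5. The other probe sets of Ldhb had day 2 means of 0.38, 0.24 and -0.12, against 1.36, 0.74 and 0.88 on day 3. Without mouse 5 the fitted difference of 1434499_a_at was 0.95 (adjusted p = 0.63). The 3 other probe sets of Ldhb gave smaller differences, all above 0. These were 0.73 ± 0.40 (1448237_x_at), 0.32 ± 0.38 (1455235_x_at) and 0.31 ± 0.40 (1416183_a_at). On them the limbal array was the higher one in 6, 5 and 5 of 8 mice. Probe sets ending in _x_at can also bind related transcripts, such as processed pseudogenes. The probe set with the smallest Ldhb difference, 1416183_a_at, does not have this ending, and a part of such binding in the differences was not tested. The ending _x_at is also that of all 5 probe sets of Aldoa and of the brightest one of Pgk1.

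Ldha (1419737_a_at) had limbal signals of 3593 and 3617 in mice 1 and 2, 958.4, 2419.5 and 3502 in mice 3 to 5 and 5079, 5972 and 14267 in mice 6 to 8. Its corneal signals were 4004 and 2458 in mice 1 and 2, 4827, 1182 and 856.3 in mice 3 to 5 and 11412, 13503 and 13842 in mice 6 to 8. In mice 3, 6 and 7 the corneal array was the brighter one by more than a log2 unit, and mice 4 and 5 went the other way. The fitted difference was -0.15 ± 0.46 with a 95% interval from -1.08 to 0.77 (adjusted p = 0.98). It was 0.15 without mouse 3, -0.45 without mouse 5 and -0.008 without mouse 6.

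On scan day 3, whose arrays were the most alike, the lactate dehydrogenase genes went opposite ways in mice 6 and 7 and hardly differed in mouse 8. Ldhb differed by 2.26, 1.20, 0.65 and 2.16 on its 4 probe sets in mouse 6 and by 2.01, 1.03, 1.74 and 1.87 in mouse 7. Ldha differed by -1.15 and -1.17 in these mice. In mouse 8 the 4 values of Ldhb lay between -0.02 and 0.25 and that of Ldha was 0.04. Within day 3, with 3 mice, neither gene passed (adjusted p = 0.41 for Ldhb and 0.57 for Ldha).

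Mouse 8 differed little between its sites in general. The standard deviation of the difference over all tested genes was 0.53 in mouse 8, against 1.21 and 1.03 in mice 6 and 7. Genes of stromal keratocytes and fibroblasts had a mean difference of 3.12 and 1.91 in mice 6 and 7 and of -0.07 in mouse 8. Immune cell genes had 3.05, 2.52 and -0.10 in mice 6, 7 and 8, conjunctival genes 1.89, 2.88 and 0.34, and corneal epithelium genes -1.80, -0.54 and -0.73. The stromal list also had 1.89 and 2.76 in mice 1 and 2, where Ldhb differed by 0.56 and 0.05. In mice 3 to 5 this list had 0.48, 0.44 and 0.68, where Ldhb differed by 0.05, 1.70 and 2.56. Mouse 5 is the one whose corneal array stood apart. All 14 stromal genes were measured, with summed signals between 7321 and 295464 in limbal and between 4719 and 33882 in corneal captures, and 14 had differences above 0. Of 14 immune genes 12 were tested, with sums between 4612 and 148732 in limbal and between 2329 and 17111 in corneal captures. The part of these cells in the lactate dehydrogenase values was not tested.

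As a contrast within each mouse, the Ldhb difference exceeded the Ldha difference by 1.30 ± 1.46 (SD, n = 8), and did so in 6 of 8 mice. Without mouse 5 the mean was 1.40. With the other probe sets of Ldhb in its place the mean was between 0.46 and 0.88, and between 0.74 and 1.23 without mouse 5. This contrast was chosen after its values were seen and is given with no test.

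**Figure D3:**
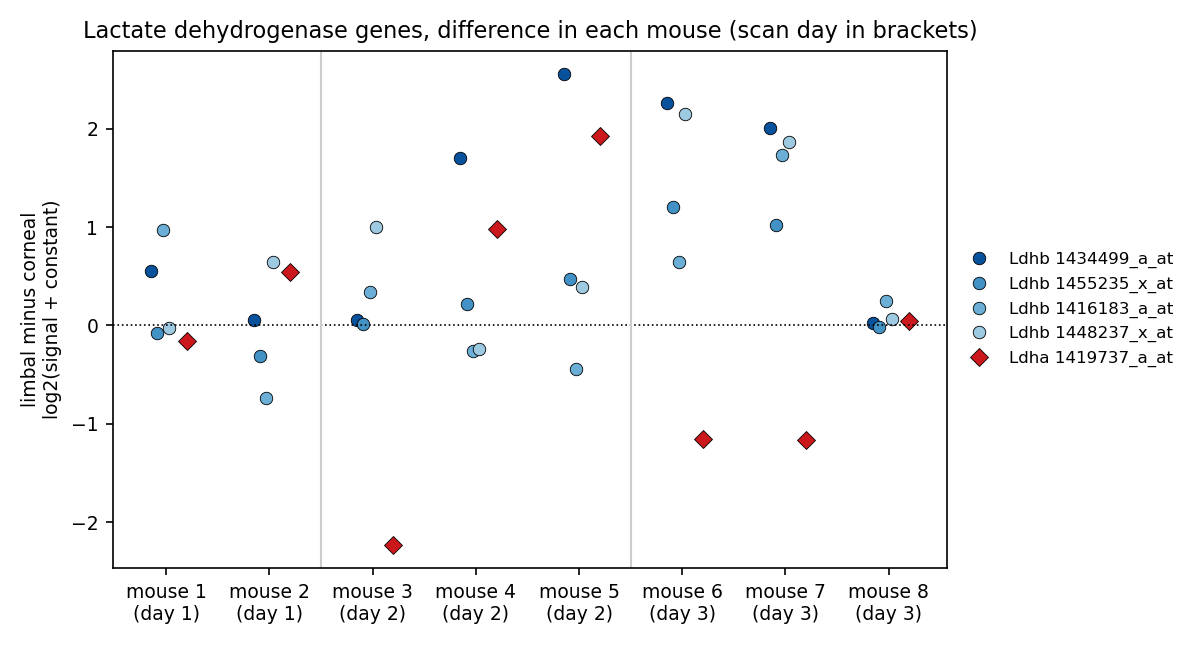
Limbal minus corneal log2 difference in each mouse for the 4 probe sets of Ldhb (blue circles) and the probe set of Ldha (red diamonds), with grey lines between scan days. In mice 6 and 7 the circles lie above 0 and the diamond near -1.2, while in mouse 8 all lie between -0.02 and 0.25.

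The sequences before the start sites of the lactate dehydrogenase genes are shown because these genes encode the subunits of 1 enzyme. They are the 250 bases before a RefSeq start on GRCm38.p6, 5′ to 3′ on the strand of the gene, and capitals mark ACGTG on either strand, the core shared by many sites of the hypoxia factor HIF and of E-box factors. Where CACGTG occurs, the matches on both strands overlap and are counted once.
Ldha, chr7:46845554-46845803, plus strand: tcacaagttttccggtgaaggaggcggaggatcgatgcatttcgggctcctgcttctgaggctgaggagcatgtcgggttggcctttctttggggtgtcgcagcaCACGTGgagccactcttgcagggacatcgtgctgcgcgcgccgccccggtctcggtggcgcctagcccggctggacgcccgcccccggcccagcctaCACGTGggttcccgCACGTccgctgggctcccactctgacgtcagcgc
Ldhb, chr6:142507958-142508207, minus strand: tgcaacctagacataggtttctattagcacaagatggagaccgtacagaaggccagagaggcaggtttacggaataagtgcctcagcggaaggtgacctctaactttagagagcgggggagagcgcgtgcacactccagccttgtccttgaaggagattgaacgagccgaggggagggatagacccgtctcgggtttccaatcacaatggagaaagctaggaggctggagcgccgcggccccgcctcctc
The Ldha window holds 3 matches to ACGTG and that of Ldhb holds 0. Other sequences that these factors may bind were not searched, so a window with 0 matches can still hold such a sequence. A second RefSeq start of Ldha (chr7:46846832-46847081) had 0. Of the 8 measured genes 5 had a match in at least 1 window, Hk2, Aldoa, Pgk1, Pgam1 and Ldha, and among 27025 genes with such a window 18.5% had one. A match is a description of these letters and not a binding site. The genes with a match differed by between -0.15 (Ldha) and 0.45 (Aldoa). Those without one, Pfkl, Tpi1 and Ldhb, differed by -0.26, 0.46 and 1.15.

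The signals of the genes were far apart between scan days. For Ldha the median signal over both sites was 3605, 1801 and 12458 on days 1, 2 and 3, for Ldhb 2757, 643.9 and 5493, for Tpi1 2264, 830.3 and 3739.7 and for Pgk1 40729, 9876 and 65810.1. The brightest probe set of Pfkl ran the other way, with 549.4, 1010.3 and 342.6, but its second one (1450269_a_at) had 824.5, 382.5 and 745.5. The trimmed mean of each array had been set to the same value, 500.0, while the 99th percentile ranged from 5171 to 10207 on day 1, from 2443 to 4908 on day 2 and from 14916 to 18165 on day 3. Both arrays of a mouse shared a scan day, so the mouse term takes out an additive shift between days, but not a difference that varies by day. The mean difference on days 1, 2 and 3 was -1.12, 0.21 and -0.16 for the brightest probe set of Pfkl. It was 0.16, 1.63 and -0.45 for 1450269_a_at of Pfkl and 0.62, -0.57 and -0.18 for Pgam1. The ratio of the 3′ to the 5′ control probe set of Gapdh had a median of 4.82 in limbal arrays, between 0.74 and 7.89, and of 5.57 in corneal arrays, between 1.22 and 8.42. With that ratio in the fit the median difference of the 8 genes was 0.44, and 0 of them passed.

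Other genes of the pathway likewise gave no call. Of 13 tested genes for other isozymes and steps, 9 had differences above 0 and 4 below, with a median of 0.09, and 0 passed (1 at an unadjusted p under 0.05). The smallest p-values were those of Hkdc1, a hexokinase-like gene (-0.88 ± 0.43, adjusted p = 0.77), Aldoc, an aldolase known from brain (-0.67 ± 0.40), Pgam2, the muscle mutase (0.73 ± 0.47), and Hk1, the widespread hexokinase (0.64 ± 0.42). Among 17 regulators of flux and of the fate of pyruvate, 11 were above 0 and 6 below, and 0 passed (0 also at an unadjusted p under 0.05). The pyruvate dehydrogenase kinase genes went both ways, with 0.68 ± 0.44 for Pdk2, 0.54 ± 0.42 for Pdk4 and -0.49 ± 0.41 for Pdk1, and the phosphatase gene Pdp2 had -0.58 ± 0.44.

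The pathways that branch off held single genes with larger values, none of them called, and in each of both lists 1 gene had an unadjusted p under 0.05. Of 8 pentose phosphate genes 4 were above 0 and 4 below. Taldo1, the transaldolase gene, had limbal signals with a lowest value of 107.2, a median of 1314 and a highest value of 7978, against 50.1, 393 and 5698 in corneal captures. Its difference was 1.35 ± 0.43 (adjusted p = 0.42), above 0 in 7 of 8 mice. The others by p were Rpia (-0.67 ± 0.43), Tktl1 (-0.46 ± 0.50) and H6pd (-0.39 ± 0.49). Among 7 gluconeogenesis genes 5 were above 0, led by the glucose-6-phosphatase gene G6pc3 (1.05 ± 0.46, adjusted p = 0.72) and Fbp2, the muscle fructose bisphosphatase (0.90 ± 0.47), with 0.65 ± 0.45 for Pcx and -0.44 ± 0.44 for Pck2.

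Hypoxia response genes outside glycolysis are known to share regulators with the pathway, and 10 of 19 had differences above 0 and 9 below, with 0 called by limma and 0 at an unadjusted p under 0.05. Arnt, a partner of the HIF factors, had -0.95 ± 0.47 (adjusted p = 0.78) and Egln1, which encodes an oxygen-sensing hydroxylase, -0.80 ± 0.43. P4ha2, a collagen hydroxylase gene, had 0.79 ± 0.46 and Bhlhe40, a transcription factor gene, -0.74 ± 0.43.

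Of the 6 cell type lists, those of conjunctival, stromal and immune genes held called genes. Krt4, a keratin of conjunctiva, differed by 3.47 ± 0.53 (adjusted p = 0.0031), and 6 of 7 conjunctival genes were above 0. The stromal genes Col1a2 (2.91 ± 0.57, adjusted p = 0.018) and Vim (2.83 ± 0.60, adjusted p = 0.044) were also called. So were the immune genes H2-Aa, Lyz1 and Cpa3 (differences of 3.001, 2.84 and 2.21, adjusted p of 0.0097, 0.018 and 0.039). Among the 12 tested immune genes, 10 were above 0 and 2 below. Of 12 corneal epithelium genes 10 were below 0, with a median of -0.55, 0 called and, at an unadjusted p under 0.05, 3 lower and 1 higher, Krt14, a keratin of basal cells (0.84 ± 0.41). Of 12 skeletal muscle genes 11 were above 0, with a median of 0.61, 0 called and 2 at an unadjusted p under 0.05, the smallest that of the myosin gene Myh1 (2.86 ± 0.69, adjusted p = 0.10). Of 3 tested erythrocyte genes 2 were above 0, with 0 called and 0 at an unadjusted p under 0.05.

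**Figure D4:**
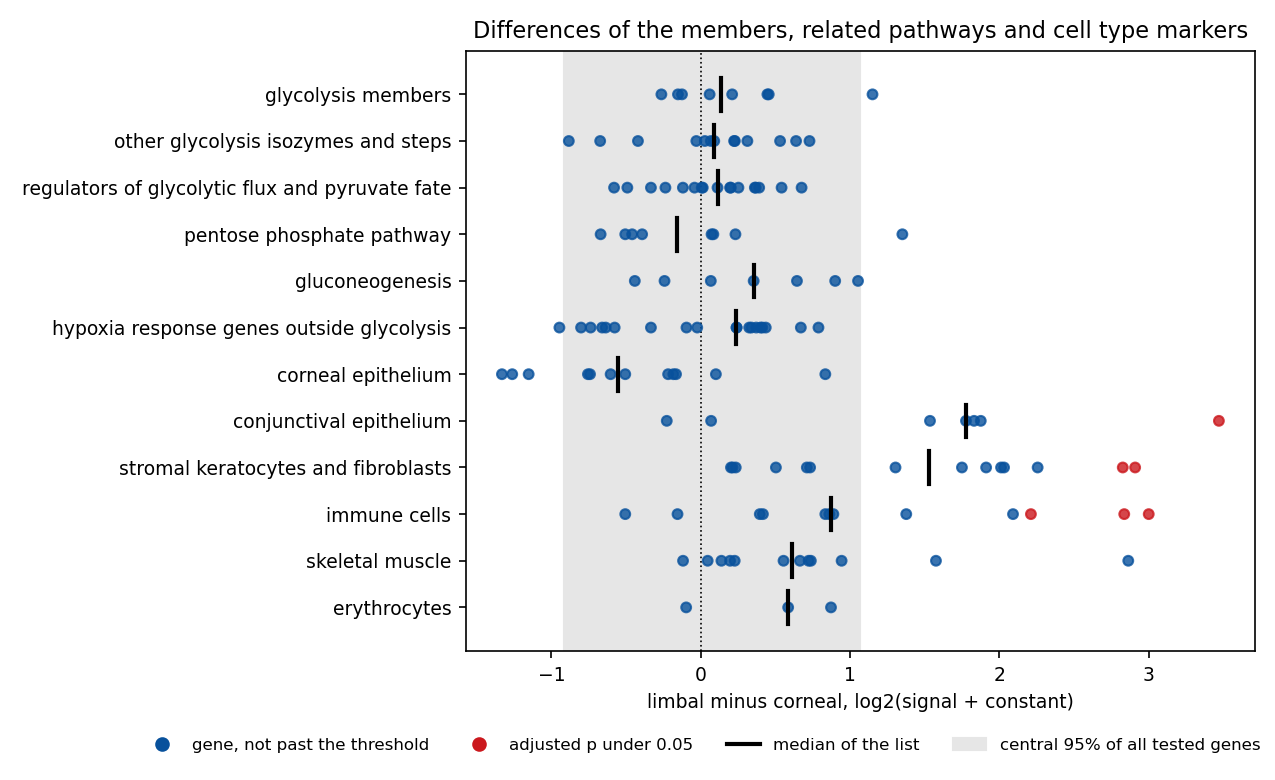
Limbal minus corneal log2 difference of each tested gene in the measured glycolysis genes, the related pathways and the cell type markers, with the median of a list as a black bar, called genes in red and the central 95% of all tested genes, from -0.92 to 1.07, in grey. Ldhb is the only one of the 8 glycolysis genes outside the grey band, and the called genes lie in the conjunctival, stromal and immune lists.

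The median difference of the 8 genes in each mouse was 0.17 and 0.33 in mice 1 and 2, -0.55, -0.11 and 1.88 in mice 3 to 5 and 0.19, -0.01 and 0.12 in mice 6 to 8. Mouse 5 was far above the others. The limbal array was the higher one for 7 of the 8 genes in mouse 5 and also in mouse 8. The tested genes outside the list whose differences over the 8 mice were most like these medians were Hmgn1, Ndufa5, Rps18, Rps29 and Hint1 (Pearson r of 0.98 to 0.99). Their differences were between 4.80 (Ndufa5) and 7.62 (Rps29) in mouse 5, and without that mouse r was between 0.88 and 0.92 over 7 mice. The genes least like them were Ccnq, Fam20c, Ddx25, Jak1 and 4931429P17Rik, with r between -0.996 (Ccnq) and -0.965 and, without mouse 5, between -0.97 (Ccnq) and -0.75 (Ddx25). These are descriptions over arrays that share a scan day and a mouse. The genes were picked by r over all 8 mice, so r over 7 of the same mice is no separate check.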

How the data were processed

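The deposited values are linear intensities, 1 for each probe set on each array. The authors had scaled the arrays to 1 trimmed mean, 500.0 with 2% cut at each end, as the values show, and the summarisation software is not given in the sources used here. The array type, the scan day and the fluidics station are per the file headers, and amplification is per the labels' protocols. The number of a title was read as the mouse; the array headers carry other names for mice 2 to 8, and the titles were used.

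Values were taken as log2(intensity + 89.4), the 25th percentile of all values. Probe sets other than the 64 controls with a mean above the 40th percentile were tested, 27022 of 45101, without further normalization. limma 3.58.1 in R 4.3.3 fitted site with the mouse as a fixed term and a variance trend, and the threshold was an adjusted p of 0.05. A gene's value is that of its brightest tested probe set annotated to 1 symbol in the platform annotation (34958 probe sets had 1 symbol and 932 several). Both captures come from the same animals by design. Deviations from the site mean correlated between the arrays of a mouse with a median r of 0.30, above 0.1 in 7 of 8 mice. The median was -0.06 between mice and 0.33 between mice of a scan day. The values within a mouse were thus no higher than within a scan day, so they do not check the pairing by mouse. The number of arrays limits the precision. The fit was tested on simulated data with noise of equal size on all arrays, which does not cover the unequal quality of the real ones.

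The members and gene lists were chosen with earlier results of these data known. Genes named outside the list are those called or, otherwise, up to 4 of each related list with the smallest p, those of marker lists where a result turns on them, and 5 each with the patterns most and least like the members. Alternatives covered the mouse term (statmod 1.5.0), filter, constant, normalization, variance trend, array weights, the Gapdh ratio, scan days, averaged probe sets and each mouse left out. No genome was used; promoter sequences are from RefSeq, GRCm38.p6, where all 10 genes were matched by symbol.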

Additional observations from a re-analysis of the deposited data

Results flagged for a closer look

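On the corneal array of mouse 5, Pgk1 had a log2 level of 7.07, while the other corneal arrays were between 14.20 and 16.21, a gap of 0.78 of the whole range of the 8 arrays. The limbal minus corneal difference of Pgk1 in mouse 5 was 6.82, against 0.27 in the next mouse and -3.01 at the other end, a gap of 0.67 of the range. Both values stand far from the other samples by Dixon's criterion, and both come from the array with the lowest correlation with the others. In all, 24 groups of 8 values were examined, limbal, corneal and difference for each of the 8 genes, and 2 stood apart; chance alone gives about 1 in 20.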

How the results depend on the processing

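Under all 24 alternatives 0 of the glycolysis genes passed in limma, between 0 and 2 of them had an unadjusted p under 0.05, and the smallest adjusted p was between 0.345 (array weights) and 1, and without the mouse in the model (no replicate block) it was 1. The median difference of the 8 genes, 0.14, lay between -0.06 and 0.44, and between -0.25 and 0.37 with each mouse left out, less than its spread between mice. Ldhb and Aldoa kept their sign under all 24. The differences that turned sign, all far from the threshold, were as follows, and the cause was not tested. With the constant at the 50th percentile Pgk1 was -0.071. After quantile normalization Ldha was 0.09. With array weights Hk2 was -0.16 and Pgk1 -0.051. With the Gapdh ratio Pgam1 was 0.29 and Ldha 0.12. Within scan day 1 Pgk1 was -0.20, Pgam1 0.62 and Ldha 0.19. Within day 2 Hk2 was -0.015, Pfkl 0.21 and Ldha 0.23. Within day 3 Pgk1 was -0.13. Without day 2 Pgk1 was -0.16 and Pgam1 0.14. With probe sets averaged Pfkl was 0.11, Tpi1 -0.039 and Pgk1 -0.066. With each mouse left out in turn, Hk2 ranged from -0.24 to 0.73, Pgk1 from -0.91 to 0.50, Pgam1 from -0.30 to 0.19 and Ldha from -0.45 to 0.15. Over all tested probe sets limma called 23. It called 0 in 4 settings, where the probe sets with an unadjusted p under 0.05 numbered 858 without a replicate block (the unpaired fit), 1596 after quantile normalization, 971 within scan day 2 and 2339 within scan day 3. It called 8 with the filter at the 60th percentile, 11 with a constant of 16, 117 with array weights, 40 with the Gapdh ratio and 104 within scan day 1, and 2 genes with probe sets averaged. With each mouse left out it called between 0 (without mouse 2, with 1551 at an unadjusted p under 0.05) and 52 (without mouse 8). The signal over background is not given in the files, so which dim values are measured is not known.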
